A study of Mus musculus with 6 samples.

Results

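The genes described here are those of the major histocompatibility complex (MHC, called H2 in the mouse) and of the machinery that loads its molecules with peptide. They were taken by symbol from the table of gene levels: every symbol starting with H2-, together with B2m, Tap1, Tap2, Tapbp, Psmb8, Psmb9, Psmb10, Cd74, Ciita and Nlrc5. This gave 37 of the 19176 rows, of which 25 belonged to class I, 11 to class II and 1 (H2-Ke6) to neither. The class I genes were the 2 classical heavy chains, 15 other heavy chain genes and 8 genes of peptide supply and control.

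RNA was sequenced from renal cortex of wild-type C57BL/6J mice, male and 8 weeks old according to the methods. All 6 mice had ischemia-reperfusion of 1 kidney by clamping of its pedicle, and the other kidney was removed shortly before the end. The 3 UIRI mice received the vehicle (ethanol in saline) and the 3 UIRI + BA mice received BA at 1 mg/kg, both by daily intraperitoneal injection for 14 days, and tissue was taken on day 14. BA is the plant compound bruceine A, spelled Brucine A in the labels. Each mouse gave 1 library, no sham or uninjured kidney was analysed here, and the comparison therefore asks how these genes differ between injured kidneys with and without BA. The labels describe the tissue as a mixture of tubular and interstitial cells, so that in every value below, fewer cells of a type and less RNA per cell cannot be told apart.

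Class I molecules stand on nearly all nucleated cells and show peptides from inside the cell to CD8 T cells. Those peptides are cut by the proteasome, whose immune form carries Psmb8, Psmb9 and Psmb10, pass into the endoplasmic reticulum through the transporter Tap1/Tap2, and are loaded with the help of tapasin (Tapbp) onto a heavy chain paired with beta-2 microglobulin (B2m). Class II molecules stand mainly on dendritic cells, macrophages and B cells and show peptides taken up from outside to CD4 T cells; their chains are escorted by the invariant chain (Cd74), exchanged for peptide by H2-DM and restrained by H2-DO. Ciita switches on class II genes and Nlrc5 class I genes, both at a shared promoter element that ends in the Y box, and interferon gamma raises both sets. In injured kidney, resident and recruited myeloid cells are the main bearers of class II.

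The promoters of 6 members are printed because these genes carry the results below: H2-Oa stood furthest apart between the groups, H2-Aa and H2-Eb1 are class II chains, and H2-K1, H2-D1 and B2m form the classical class I molecules. Each is the 180 bases before a RefSeq start of the gene, 5′ to 3′ on the strand of the gene, on build GRCm38.p6. Where RefSeq gives several starts, the most downstream was taken. By the GENCODE positions used below, the H2-D1 window lies inside the gene, which begins at 35262730. The H2-Oa and H2-K1 windows overlap the beginning of theirs. Capitals mark the Y box core ATTGG on either strand (CCAAT) and the NF-kappaB-like element GGGNNTTCC (GGAANNCCC on the other strand). They also mark GAANNGAAA (TTTCNNTTC on the other strand), a pattern that resembles the interferon-stimulated element. GAANNGAAA allows a single spacing, so the related gaaactgaaa of the B2m window, longer by a base, is not marked. GGGNNTTCC does so too, and the related ggaaagtccc of the B2m window, also longer by a base, is likewise not marked.
H2-Oa (chr17:34092199-34092378, strand +): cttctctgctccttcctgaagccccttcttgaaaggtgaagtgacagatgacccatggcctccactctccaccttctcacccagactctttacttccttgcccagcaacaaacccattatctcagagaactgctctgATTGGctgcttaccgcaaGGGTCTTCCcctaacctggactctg
H2-Aa (chr17:34287824-34288003, strand -): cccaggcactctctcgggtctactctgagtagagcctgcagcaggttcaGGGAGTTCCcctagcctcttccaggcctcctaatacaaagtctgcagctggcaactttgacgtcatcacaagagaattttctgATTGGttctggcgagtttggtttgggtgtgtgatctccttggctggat
H2-Eb1 (chr17:34305687-34305866, strand +): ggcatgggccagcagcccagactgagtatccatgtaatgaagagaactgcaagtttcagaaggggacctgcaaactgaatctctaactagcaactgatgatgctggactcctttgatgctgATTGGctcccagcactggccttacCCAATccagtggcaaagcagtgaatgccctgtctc
H2-K1 (chr17:34000334-34000513, strand -): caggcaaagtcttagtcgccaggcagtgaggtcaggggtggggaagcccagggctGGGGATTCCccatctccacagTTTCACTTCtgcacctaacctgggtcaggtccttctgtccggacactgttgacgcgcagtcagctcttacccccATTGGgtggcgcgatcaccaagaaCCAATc
H2-D1 (chr17:35262914-35263093, strand +): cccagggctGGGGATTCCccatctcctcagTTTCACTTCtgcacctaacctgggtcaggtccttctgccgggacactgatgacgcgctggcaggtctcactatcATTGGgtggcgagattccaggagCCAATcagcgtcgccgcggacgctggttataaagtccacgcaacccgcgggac
B2m (chr2:122147507-122147686, strand +): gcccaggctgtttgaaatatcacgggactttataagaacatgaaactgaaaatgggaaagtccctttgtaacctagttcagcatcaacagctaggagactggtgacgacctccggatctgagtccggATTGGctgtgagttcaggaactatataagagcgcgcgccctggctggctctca

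A RefSeq promoter was found for 28 of the 37 members, 19 of class I and 8 of class II among them. Members were counted by gene, a match in any RefSeq promoter of the gene sufficing, whereas the shares of all are of single promoters. Within 250 bases before the start and on both strands, ATTGG was present in 8 of the 8 class II and in 15 of the 19 class I members, against 33.8% of all 32851 promoters of that length. The longer CTGATTGG, which contains ATTGG, was found in 4 of 8 class II members (H2-Aa, H2-Eb1, H2-Eb2 and H2-Oa), in 7 of 19 class I members and in 3.83% of all promoters. GAANNGAAA was in 0 of 8 class II and 8 of 19 class I members (6.31% of all promoters), and GGGNNTTCC in 2 of 8 and 6 of 19 (4.98% of all promoters). The H2-K1 and H2-D1 windows both hold the last 2 of these patterns and a pair of Y box cores, and the H2-Oa window holds 1 Y box core and 1 NF-kappaB-like element. These are matches of letters only, and the GAANNGAAA and GGGNNTTCC counts leave out related stretches with another spacing, such as those of B2m.

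Libraries held between 16510720 and 38124164 reads on genes, and UIRI replicate 3 was the deepest. A level is given as the normalized count, the reads of a gene divided by the size factor of its library, and values are listed in the order of replicates 1, 2 and 3. Between 12 and 97736 reads lay behind each member in each library. Per kilobase of exon, and as means over the 6 libraries, Cd74 was at 41609.7 and B2m at 39248, followed by H2-Eb1 at 21608, H2-Ab1 at 12327, H2-Aa at 12221, H2-K1 at 8566 and H2-D1 at 8537. Among class II genes the lowest level per kilobase was that of H2-Eb2 (23.9), with H2-Oa at 61.8 and H2-Ob at 64.3. The length used was that of all annotated exons of a gene merged, so this order depends on the annotation. It was 3798 bases for H2-Aa, 1944 for H2-Eb1, 1407 for H2-Oa and 5380 for H2-Ob. Before division by length, the mean counts of these genes were 46416, 42006, 86.9 and 346. As percent of the reads on genes, the class II members together made up 1.14, 1.18 and 0.762 in UIRI, against 0.852, 0.985 and 0.740 in UIRI + BA. The class I members made up 0.611, 0.632 and 0.435 in UIRI, against 0.507, 0.565 and 0.423 in UIRI + BA. In both classes UIRI replicates 1 and 2 had the largest shares, and UIRI replicate 3 had a smaller share than UIRI + BA replicates 1 and 2.

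With BA, 10 of the 11 class II members and 21 of the 25 class I members had a lower mean log2 level, against 51.1% of all rows. The median log2 fold change (UIRI + BA over UIRI) was -0.20 for class II, -0.13 for class I and -0.0053 for all rows. None of the 37 passed an adjusted p of 0.05 in limma, where 0 genes (0% of rows) did over the whole table. DESeq2 called 213 genes at that threshold, 0 of them members. At an unadjusted p below 0.05 there were 2 members, H2-Oa and H2-Q2, both lower with BA, which is 2 of 37 where 10.3% of all rows passed in either direction and 4.61% passed lower. The same 2 were the members whose groups did not overlap, where 14.4% of rows did not overlap and 6.96% did so lower with BA. Both counts are 5.41% of the members, near the shares of all rows that were lower with BA and below the shares in either direction.

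**Figure D1:**
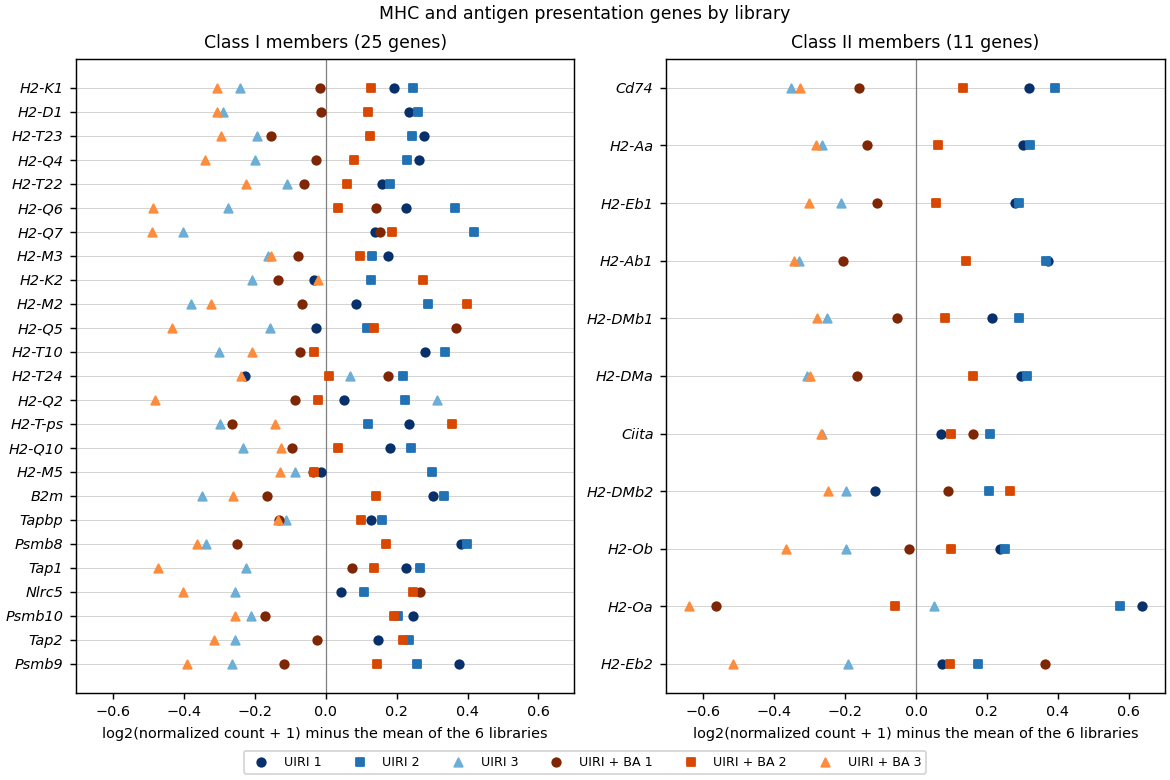
Level of each class I member (left, 25 genes) and class II member (right, 11 genes) in the 6 libraries, as log2(normalized count + 1) minus the mean of the gene over the 6 libraries. UIRI replicates 1 and 2 (dark and mid blue) lie to the right in most genes and both replicates 3 (triangles) to the left; H2-Oa is the class II gene in which all UIRI libraries lie right of all UIRI + BA libraries.

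The invariant chain Cd74, which occupies the peptide groove of new class II molecules, was at 85293, 89741 and 53524 in UIRI, against 61169.7, 74958 and 54491 in UIRI + BA. UIRI replicate 3 was the lowest of the 6 libraries, while the other UIRI libraries were the highest (log2 fold change -0.24, standard error 0.21, adjusted p = 0.688). H2-Aa, the alpha chain of the I-A molecule, was at 56399, 57151 and 38046 in UIRI, against 41559, 47767 and 37572 in UIRI + BA. Its partner H2-Ab1 was at 40062, 39938 and 24603 in UIRI, against 26825, 34141 and 24366 in UIRI + BA. H2-Eb1 encodes the beta chain of I-E, whose alpha chain gene is defective in C57BL/6 mice, and was at 50349.8, 50708 and 35800.5 in UIRI, against 38406, 43136 and 33638 in UIRI + BA. These 3 chain genes shared the pattern of Cd74: UIRI replicates 1 and 2 were above all UIRI + BA libraries, and UIRI replicate 3 was below UIRI + BA replicates 1 and 2. Their log2 fold changes were -0.24, -0.27 and -0.24, with standard errors of 0.169, 0.200 and 0.156 and adjusted p-values of 0.626, 0.638 and 0.607 from limma. H2-Eb2, a second and sparsely expressed E beta gene, was at 83.8, 90.0 and 69.5 in UIRI, against 103, 85.1 and 55.3 in UIRI + BA, and its group means were 81.1 ± 10.5 (SD, n = 3) in UIRI, against 81.0 ± 23.97 (SD, n = 3) in UIRI + BA.

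These levels differed widely between libraries, and their proportions to each other far less. The ratio of H2-Aa to H2-Ab1 ran from 1.40 to 1.55 over the 6 libraries, that of H2-Eb1 to H2-Aa from 0.887 to 0.941, and that of Cd74 to H2-Ab1 from 2.13 to 2.28. In none of the 3 ratios did the groups differ beyond their spread (exact two-sided permutation test, p = 0.9, 1 and 0.3; the smallest p that 3 against 3 libraries allow is 0.1). The highest ratio was 1.11 times the lowest for H2-Aa to H2-Ab1 and 1.06 times for H2-Eb1 to H2-Aa. The groups overlapped in all 3. Of the 19 ratios between genes that were computed, 2 did not overlap, and the smallest exact p after Benjamini-Hochberg adjustment over the 19 was 0.713.

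H2-DM, the editor that removes the invariant chain fragment and favours tightly bound peptides, is built from H2-DMa with H2-DMb1 or H2-DMb2. H2-DMa was at 3127, 3164 and 2057 in UIRI, against 2267, 2847 and 2068 in UIRI + BA. H2-DMb1 was at 3416, 3602 and 2472 in UIRI, against 2839, 3118 and 2424 in UIRI + BA. In both, UIRI replicates 1 and 2 were the highest libraries and the groups overlapped through UIRI replicate 3 (log2 fold changes -0.20 and -0.17, adjusted p = 0.689 and 0.694). H2-DMb2 did not have this order, with 772, 964 and 729 in UIRI, against 889, 1005 and 703 in UIRI + BA, and was the only class II member with a fold change above 0 (0.07, standard error 0.148). H2-DMa shares 360 exon bases, 10.4% of its own, with Brd2 on the opposite strand.

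H2-Oa had the largest difference of all members. It encodes the alpha chain of H2-DO, which binds H2-DM and holds it back, chiefly in B cells and some dendritic cells. On build GRCm38 it lies on chromosome 17, plus strand, from 34092340 to 34095234. Its normalized count was 128, 123 and 84.9 in UIRI, against 55.1, 78.6 and 52.2 in UIRI + BA, and every UIRI library was above every UIRI + BA library. The means were 112 ± 23.5 (SD, n = 3) in UIRI, against 62.0 ± 14.5 (SD, n = 3) in UIRI + BA. limma gave a log2 fold change of -0.84 (standard error 0.22, unadjusted p = 0.0043, adjusted p = 0.298), so that it did not pass over all genes. The adjusted p was 0.0933 with DESeq2, which called 1.11% of genes, and 0.328 with edgeR on the reads, which called 0%. Leaving out each library in turn kept the log2 fold change between -1.03 and -0.73. Without UIRI replicate 3 its adjusted p in limma was 0.0340, in a fit where 1.79% of all rows passed lower with BA. In the other left-out fits its adjusted p in limma lay between 0.390 and 0.9995. H2-Oa shares 321 exon bases (22.8% of its own) with BC051537 on the opposite strand. The labels call the libraries strand-specific, but whether the counting used strand is not given in the sources used here, so reads of the pair may not have been told apart.

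The beta chain H2-Ob, the partner of H2-Oa, was at 403, 407 and 298 in UIRI, against 337, 366 and 265 in UIRI + BA, and its groups overlapped (log2 fold change -0.19, standard error 0.16, adjusted p = 0.678). The ratio of H2-Oa to H2-Ob was 0.317, 0.301 and 0.285 in UIRI, against 0.164, 0.215 and 0.197 in UIRI + BA, with no overlap (p = 0.1 by two-sided exact permutation, the lowest value 3 against 3 can give). The ratio of H2-Oa to H2-DMa did not overlap either, at 0.0409, 0.0387 and 0.0413 in UIRI, against 0.0243, 0.0276 and 0.0252 in UIRI + BA (exact p = 0.1). That of H2-Ob to H2-DMa overlapped, at 0.129, 0.129 and 0.145 in UIRI, against 0.149, 0.129 and 0.128 in UIRI + BA (exact p = 1). In UIRI replicate 3, where all these genes were low, the H2-Oa ratios stayed within or near the range of the other UIRI libraries. These ratios were chosen after the H2-Oa values were known and add no independent evidence.

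**Figure D2:**
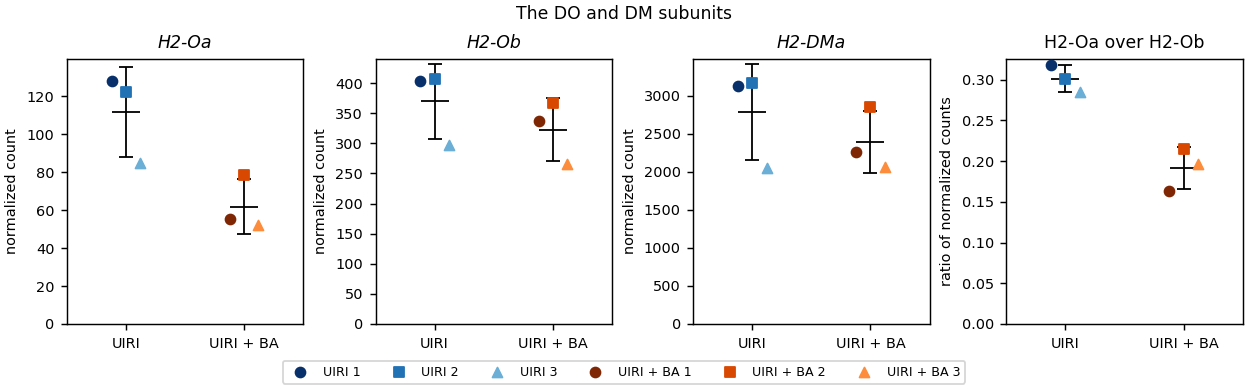
Normalized count of H2-Oa, H2-Ob and H2-DMa, and the ratio of H2-Oa to H2-Ob, in each of the 3 UIRI (blue) and 3 UIRI + BA (orange) libraries; horizontal marks and bars are means and SD. H2-Oa lies between 84.9 and 128 in UIRI and between 52.2 and 78.6 in UIRI + BA, whereas H2-Ob and H2-DMa overlap between the groups.

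Ciita, the transactivator on which class II transcription depends, was at 1664, 1831 and 1317 in UIRI, against 1770.1, 1696 and 1315 in UIRI + BA, and the group means were 1604 ± 262 (SD, n = 3) in UIRI, against 1594 ± 244 (SD, n = 3) in UIRI + BA. Its log2 fold change was -0.01 with a standard error of 0.145, whereas those of Cd74, H2-Aa, H2-Ab1 and H2-Eb1 lay between -0.27 and -0.24. The ratio of Cd74 to Ciita was 51.2, 49.0 and 40.6 in UIRI, against 34.6, 44.2 and 41.4 in UIRI + BA, and the groups overlapped (exact two-sided permutation test, p = 0.3). Of 12 other genes that serve class II presentation (the RFX factors that bind its promoters, lysosomal proteases and co-stimulatory molecules), 8 were lower and 4 higher, with a median of -0.09 and 0 at an unadjusted p below 0.05. Rfx5, a subunit of the promoter complex to which Ciita binds, was at 581, 628 and 623 in UIRI, against 653, 599.9 and 655 in UIRI + BA. Ctss, the cathepsin that trims the invariant chain in antigen-presenting cells, was at 21194, 19725 and 15598 in UIRI, against 16032, 16620.3 and 13905 in UIRI + BA (log2 fold change -0.27, standard error 0.13, adjusted p = 0.501). The Ctss groups overlapped.

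H2-K1 and H2-D1 encode the classical class I heavy chains. H2-K1 was at 28430.3, 29547 and 21062 in UIRI, against 24625, 27208 and 20121 in UIRI + BA. H2-D1 was at 25576, 26028 and 17791 in UIRI, against 21523, 23594 and 17590.0 in UIRI + BA. Both replicates 3 were the lowest libraries in each gene and UIRI replicates 1 and 2 the highest, with log2 fold changes of -0.13 and -0.14 (standard errors 0.155 and 0.164, adjusted p = 0.767 and 0.771). Their ratio stayed between 1.11 and 1.18. On build GRCm38, 32 of the 37 members lie on chromosome 17 between 33915899 and 37483552, H2-K1 and H2-D1 at either side of the class II genes. The heavy chain genes are near-identical copies of each other in long stretches, so the division of reads among all H2-K, H2-D, H2-Q and H2-T genes is uncertain.

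B2m, the light chain of all class I molecules, was at 40868, 41808 and 26048 in UIRI, against 29564, 36550.1 and 27679 in UIRI + BA. UIRI replicate 3 was the lowest library and UIRI replicates 1 and 2 the highest (log2 fold change -0.19, standard error 0.19, adjusted p = 0.721). The ratio of B2m to H2-K1 ran from 1.201 to 1.44, with overlap between the groups.

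Among the nonclassical heavy chains, H2-T23 encodes Qa-1, which presents leader peptides of other class I chains to CD94/NKG2 receptors. It was at 5105, 4989 and 3682 in UIRI, against 3784, 4588 and 3429.9 in UIRI + BA (log2 fold change -0.22, standard error 0.14, adjusted p = 0.611), with UIRI replicates 1 and 2 on top and both replicates 3 at the bottom. H2-Q4 was at 4139, 4037 and 2997 in UIRI, against 3381, 3643 and 2718 in UIRI + BA. H2-T22, a ligand of some gamma delta T cells, was at 2659, 2705 and 2208 in UIRI, against 2285, 2483 and 2039 in UIRI + BA. Their log2 fold changes were -0.19 and -0.15, and their groups overlapped. H2-Q4 shares 19.1% and H2-T22 29.4% of exon bases with genes on the opposite strand.

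H2-Q6 and H2-Q7 belong to the Qa-2 genes. H2-Q6 was at 2568, 2827 and 1809 in UIRI, against 2418, 2244 and 1564 in UIRI + BA. H2-Q7 was at 1768, 2146 and 1216 in UIRI, against 1786, 1831 and 1144 in UIRI + BA. In both the highest library was UIRI replicate 2, and in H2-Q7 UIRI replicate 1 was below UIRI + BA replicates 1 and 2 (log2 fold changes -0.21 and -0.10). H2-M3, which presents formylated peptides, was at 669.5, 649 and 529 in UIRI, against 561, 634 and 532 in UIRI + BA (log2 fold change -0.09). H2-M2 was at 322, 370.1 and 233 in UIRI, against 289, 399.5 and 242 in UIRI + BA, with its highest level in UIRI + BA replicate 2. H2-T24 was at 159.7, 218 and 197 in UIRI, against 212, 188 and 159 in UIRI + BA. In none of these did the groups separate, and the log2 fold changes of H2-M2 and H2-T24 were 0.00 and -0.04.

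H2-Q2 was the only class I member whose groups did not overlap, at 108, 121 and 129 in UIRI, against 97.7, 102 and 74.1 in UIRI + BA. Its highest library was UIRI replicate 3, unlike in any other member, and its means were 119 ± 10.9 (SD, n = 3) in UIRI, against 91.4 ± 15.1 (SD, n = 3) in UIRI + BA. limma gave a log2 fold change of -0.39 (standard error 0.17, unadjusted p = 0.0448, adjusted p = 0.484), which was -0.25 without UIRI + BA replicate 3. Its values rest on 71 to 236 reads per library.

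Several H2 genes are annotated as pseudogenes or as pseudogenes in some strains. H2-K2 was at 428, 479 and 379.5 in UIRI, against 399.6, 531 and 432 in UIRI + BA. H2-Q5 was at 291, 322 and 266 in UIRI, against 383, 326 and 219 in UIRI + BA. H2-T10 was at 263, 273 and 175 in UIRI, against 205, 211 and 187 in UIRI + BA. H2-K2 and H2-Q5 had log2 fold changes above 0 (0.08 and 0.05), and H2-T10 one of -0.21. H2-T10 shares 27.1% of its exon bases with BC023719 on the opposite strand. H2-T-ps, H2-Q10 and H2-M5 lay between 28.2 and 50.6 in all libraries with log2 fold changes between -0.13 and -0.04. H2-Ke6, which carries an H2 name for its place in the region but encodes a steroid dehydrogenase, was between 10.95 and 17.54 (log2 fold change 0.09), and 86.4% of its exon bases are shared with Gm20427 on the same strand.

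The transporter that carries peptides into the endoplasmic reticulum is formed by Tap1 and Tap2. Tap1 was at 1813, 1866 and 1326 in UIRI, against 1631, 1705 and 1117 in UIRI + BA. Tap2 was at 1345, 1429.6 and 1017 in UIRI, against 1194, 1414 and 976 in UIRI + BA. In both, the replicates 3 of both groups were the lowest libraries, and UIRI + BA replicate 2 was close to UIRI replicate 1 (log2 fold changes -0.18 and -0.08). Tapasin (Tapbp), the bridge between the transporter and the heavy chain, was at 6153, 6284 and 5206 in UIRI, against 5141, 6032 and 5126 in UIRI + BA (log2 fold change -0.11, standard error 0.10, adjusted p = 0.696). UIRI replicate 3 and UIRI + BA replicates 1 and 3 of Tapbp were alike, and the other 3 libraries were higher.

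The immunoproteasome subunits replace their constitutive counterparts when interferon gamma is present. Psmb8 was at 2375, 2404 and 1442 in UIRI, against 1532, 2050.5 and 1417 in UIRI + BA, the class I member with the lowest fold change after H2-Q2 (log2 fold change -0.30, standard error 0.20, adjusted p = 0.622). Psmb9 was at 1246, 1146 and 798 in UIRI, against 884, 1059.7 and 731 in UIRI + BA. Psmb10 was at 1443, 1401 and 1051 in UIRI, against 1081, 1391 and 1019 in UIRI + BA. In Psmb8 and Psmb9 both UIRI replicates 1 and 2 lay above all UIRI + BA libraries, and UIRI replicate 3 lay below 2 of them. The log2 fold changes of Psmb9 and Psmb10 were -0.24 and -0.16. Each was also set against the constitutive subunit it replaces. The ratio of Psmb8 to Psmb5 was 1.47, 1.48 and 1.14 in UIRI, against 1.28, 1.42 and 0.967 in UIRI + BA. That of Psmb9 to Psmb6 was 0.501, 0.452 and 0.405 in UIRI, against 0.474, 0.453 and 0.327 in UIRI + BA. That of Psmb10 to Psmb7 was 2.02, 1.70 and 1.26 in UIRI, against 1.32, 1.68 and 1.07 in UIRI + BA. The groups overlapped in all 3 ratios (exact two-sided permutation tests, p = 0.5, 0.7 and 0.4).

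Nlrc5, the class I transactivator, was at 1512, 1583 and 1228 in UIRI, against 1764, 1741 and 1109 in UIRI + BA. Its highest libraries were UIRI + BA replicates 1 and 2, and its log2 fold change was 0.07 (standard error 0.177, adjusted p = 0.896). It was 0.29 without UIRI + BA replicate 3 (unadjusted p = 0.0436, adjusted p = 0.580 in limma) and -0.04 without UIRI + BA replicate 1. The ratio of H2-K1 to Nlrc5 was 18.8, 18.7 and 17.1 in UIRI, against 14.0, 15.6 and 18.1 in UIRI + BA, with overlap (exact two-sided permutation test, p = 0.2). Neither transactivator thus had the order of libraries seen in its main targets. Of 10 other genes of the class I pathway, 6 were higher and 4 lower, with a median of 0.08. The chaperone Calr, part of the loading complex, was at 12837, 12767 and 12385 in UIRI, against 15697, 13946 and 14567 in UIRI + BA, with no overlap and an unadjusted p of 0.0234 in limma (log2 fold change 0.22, standard error 0.08, adjusted p = 0.440). Of all rows, 7.45% did not overlap higher with BA and 5.67% passed higher at an unadjusted p below 0.05. Erap1, which trims peptides in the endoplasmic reticulum, had a log2 fold change of 0.14, and the proteasome activators Psme1 and Psme2 had -0.15 and -0.11. The constitutive subunits Psmb5, Psmb6 and Psmb7 had -0.13, -0.12 and 0.13.

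**Figure D3:**
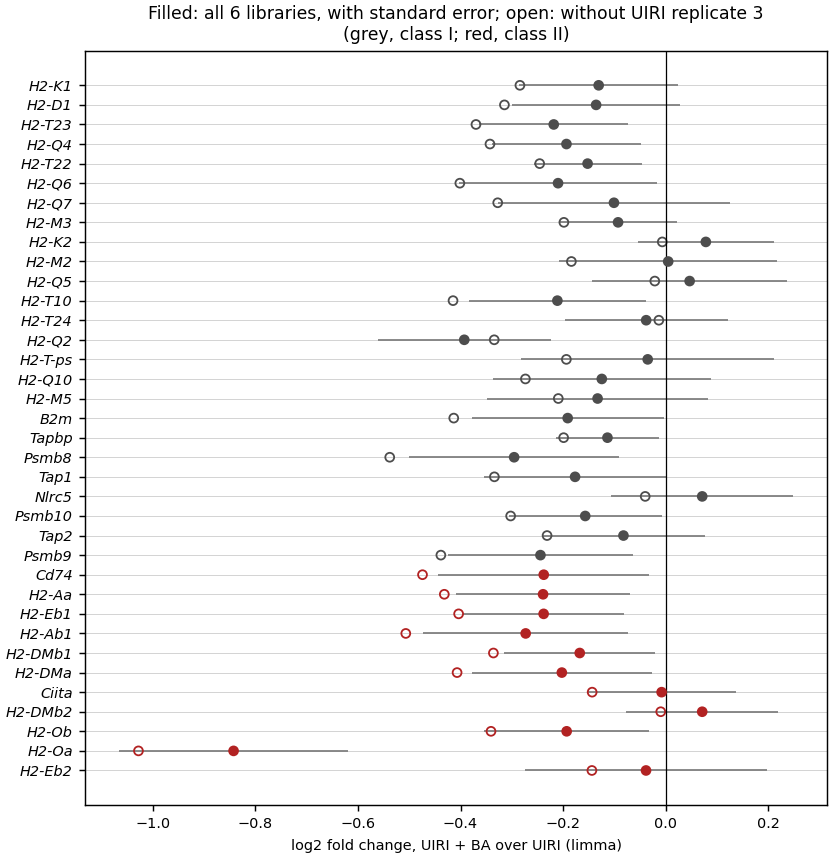
log2 fold change (UIRI + BA over UIRI, limma) of the 25 class I (grey) and 11 class II (red) members. Filled points with bars are the fit of all 6 libraries with its standard error, and open points the fit without UIRI replicate 3; H2-Oa at -0.84 is the member furthest from 0, and most open points lie further below 0 than the filled ones.

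How far the members stood apart depended on UIRI replicate 3. In 24 of the 37 members UIRI replicates 1 and 2 were the 2 highest libraries, against 19% of all rows and 21.7% of rows with a mean of 100 or more. The lowest library was UIRI + BA replicate 3 in 27 members and UIRI replicate 3 in 10, that is a replicate 3 in all 37, against 29.6% of all rows. UIRI replicate 3 lay below every UIRI + BA library in 10 members, against 23.2% of rows. The range of the 3 UIRI libraries on the log2 scale was larger than the group difference in 35 of 37 members, against 82% of rows, and its median was 0.491 for the members and 0.325 for all rows.

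Without UIRI replicate 3, 12 of 25 class I and 8 of 11 class II members had an unadjusted p below 0.05, all lower with BA, where 11.5% of all rows did so. The medians were then -0.28 for class I and -0.40 for class II. H2-Oa alone passed an adjusted p of 0.05 in limma there, where 1.79% of rows passed lower. Without UIRI + BA replicate 3 the medians were -0.04 and -0.10, and 2 members had an unadjusted p below 0.05. H2-Oa of class II was lower there, where 4.35% of rows passed lower, and Nlrc5 of class I was higher, where 4.06% passed higher. No label sets UIRI replicate 3 apart, and it was kept. It held 38124164 reads on genes, against 16510720 to 20313529 in the other libraries, and whether depth bears on its levels was not tested.

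**Figure D4:**
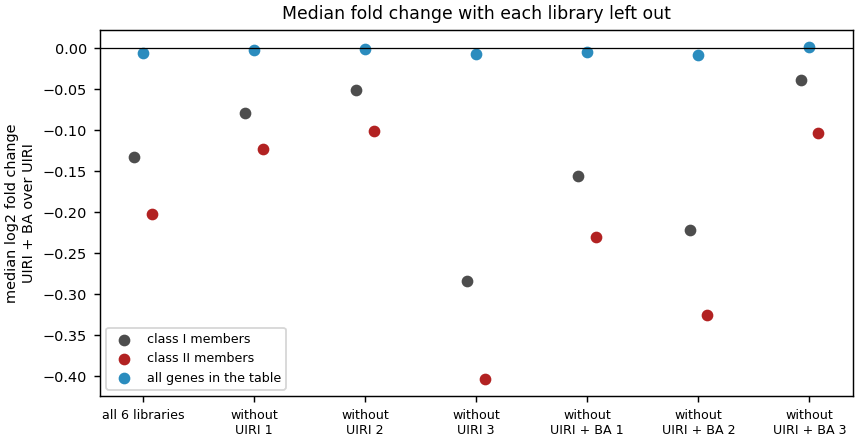
Median log2 fold change (UIRI + BA over UIRI) of the 25 class I members (grey), 11 class II members (red) and all 19176 genes of the table (blue) with all 6 libraries and with each library left out in turn. Both member medians lie below 0 in every fit, from -0.28 to -0.04 for class I and from -0.40 to -0.10 for class II, and are lowest without UIRI replicate 3.

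Markers of the cells that bear these molecules were compared beside them. Of 10 dendritic cell genes 10 were lower and of 11 macrophage genes 10 were lower with BA, against 51.1% of all rows, with medians of -0.30 and -0.26. In each list 2 genes were lower at an unadjusted p below 0.05 (Ccr7 and Siglech, Cx3cr1 and Mrc1), where 4.61% of all rows passed lower. After adjustment in limma 0 passed. The summed normalized count of the dendritic cell list was 6976, 7417 and 5429 in UIRI, against 5814, 6392 and 5090.1 in UIRI + BA, and that of the macrophage list was 133885, 121113 and 93404 in UIRI, against 94108, 102878 and 89601 in UIRI + BA. In both, UIRI replicates 1 and 2 were the highest libraries, as in 8 of the 11 class II members. Without UIRI replicate 3, 7 of the 10 dendritic cell and 10 of the 11 macrophage genes had an unadjusted p below 0.05, all lower, where 11.5% of rows did so. Itgax, the integrin CD11c carried by dendritic cells and renal macrophages, was at 3122, 3197 and 2308 in UIRI, against 2522, 2926 and 2182 in UIRI + BA, and the ratio of H2-Aa to Itgax stayed between 16.3 and 18.1. The macrophage receptors Adgre1 (F4/80) and Csf1r had log2 fold changes of -0.16 and -0.17, the complement gene C1qa -0.35, and the dendritic cell receptor Flt3 -0.16. The part of these cells in the levels of the members was not tested.

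Of 5 genes shared by all leukocytes 5 were lower (median -0.21), with Cd53 at an unadjusted p below 0.05 (4.61% of all rows passed lower). Ptprc (CD45) was at 7053, 7384 and 6738 in UIRI, against 7376, 7141 and 5812 in UIRI + BA, a smaller spread than that of the class II chains, and the ratio of H2-Aa to Ptprc was 7.996, 7.74 and 5.65 in UIRI, against 5.63, 6.69 and 6.46 in UIRI + BA with overlap (exact two-sided permutation test, p = 0.3). B cells, which express H2-DO most, gave low counts: Ms4a1 (CD20) was at 20.4, 14.6 and 19.7 in UIRI, against 16.3, 31.2 and 8.35 in UIRI + BA. Of 7 B cell genes 6 were lower (median -0.22), with Cd22 at an unadjusted p below 0.05 (again beside 4.61% of all rows). The summed B cell list was at 467, 391 and 354 in UIRI, against 324, 407 and 283 in UIRI + BA, and its groups overlapped. Cd22 was at 196, 160 and 137 in UIRI, against 110, 136 and 114 in UIRI + BA, without overlap. Of all rows, 6.96% did not overlap and were lower with BA. The part of B cells in the level of H2-Oa was not tested. Of 8 T cell genes 7 were lower (median -0.07; Cd3e -0.01), of 7 NK cell genes 5 (median -0.12; Ncr1 -0.23) and of 7 endothelial genes 7 (median -0.11), with 0 at an unadjusted p below 0.05 in these 3 lists. Without UIRI + BA replicate 3 the T cell and NK cell medians were above 0 (0.13 and 0.11).

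**Figure D5:**
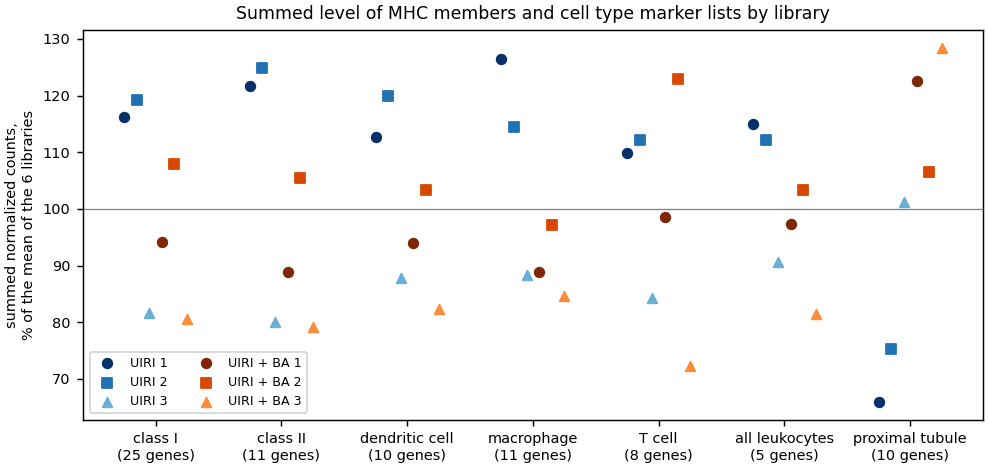
Summed normalized counts of the class I and class II members and of 5 marker lists in each library, as percent of the mean of the 6 libraries for that list. The class I, class II, dendritic cell, macrophage and leukocyte sums are highest in UIRI replicates 1 and 2 (dark and mid blue), while the proximal tubule sum is lowest there.

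Proximal tubule genes differed in the other direction, and injured tubule genes in both. Of 10 proximal tubule genes 10 were higher with BA (median 0.71), 9 of them at an unadjusted p below 0.05, where 5.67% of all rows were higher at that p. The summed proximal tubule list was 20414, 23323 and 31338 in UIRI, against 37987, 33005 and 39774 in UIRI + BA, lowest in UIRI replicates 1 and 2, and Lrp2 (megalin), the uptake receptor of that segment, was at 2912, 3608 and 5119 in UIRI, against 7005, 5484 and 7057 in UIRI + BA. Beside Lrp2, the sodium-phosphate transporter Slc34a1 (0.53), the dicarboxylate transporter Slc13a3 (0.77), cubilin (Cubn, 0.71) and the organic anion transporter Slc22a6 (0.98) did not overlap between the groups. Among all rows, 7.45% did not overlap and were higher with BA. Of 8 injured tubule genes 5 were higher and 3 lower (median 0.19): Havcr1 (KIM-1), Vcam1 and Krt20 were higher (0.42, 0.35 and 0.41) and Lcn2 (NGAL) and Krt18 lower (-0.51 and -0.39) at an unadjusted p below 0.05. At that p, 5.67% of all rows passed higher and 4.61% lower. The 8 urothelial genes were all lower (median -1.77) at summed levels of 196, 155 and 612 in UIRI, against 47.6, 59.2 and 384 in UIRI + BA, which differ by more between the libraries of a group than between the groups. Krt5 was at 18.1, 22.5 and 107 in UIRI, against 1.25, 3.23 and 56.4 in UIRI + BA, and Upk2 and Upk3a were at 0 in at least 1 UIRI + BA library. None of the 8 had an unadjusted p below 0.05 with all libraries, and 7 were lower at that p without UIRI + BA replicate 3. How much the share of tubule RNA bears on the members was not tested.

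Interferon gamma is the main inducer of MHC genes. Ifng itself was at 12.5, 7.87 and 5.48 in UIRI, against 8.77, 10.8 and 6.26 in UIRI + BA, on few reads. Of 14 genes that carry interferon signals to MHC promoters 9 were lower and 5 higher (median -0.04), with 0 at an unadjusted p below 0.05. Irf8 had a log2 fold change of -0.22 and Irf1 of -0.05. Of 22 interferon response genes 12 were lower and 10 higher (median -0.01), and 4 of these had an unadjusted p below 0.05, all lower, where 4.61% of all rows passed lower: Ifit3 (-0.53), Ifi44 (-0.41), Isg15 (-0.67) and Usp18 (-0.41), genes known mainly as targets of type I interferon. Without UIRI + BA replicate 3 the median of this list was 0.14, with 8 genes higher and 3 lower at that p (4.06% of rows higher, 4.35% lower), and without UIRI replicate 3 it was -0.05, with 0 higher and 9 lower (11.5% of rows lower), 8 of them also at an adjusted p of 0.05 in limma (1.79% of rows). The median of the signal list was 0.02 without UIRI + BA replicate 3, and -0.17 without UIRI replicate 3, where 5 of its genes were lower at an unadjusted p below 0.05.

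Of 11 receptors from families that recognise MHC or class I-like molecules, 8 were lower and 3 higher (median -0.35). At an unadjusted p below 0.05, 2 were lower, where 4.61% of all rows passed lower. Lag3, an inhibitory receptor for class II, was at 215, 179.96 and 144 in UIRI, against 119, 124 and 134 in UIRI + BA, and Klrd1 (CD94), part of the receptor for Qa-1, was at 334, 280.1 and 242 in UIRI, against 215, 230.5 and 216 in UIRI + BA. In both, every UIRI library was above every UIRI + BA library, as in 6.96% of all rows (log2 fold changes -0.50 and -0.36, adjusted p = 0.385 and 0.441 in limma). The co-receptors Cd4 and Cd8a had log2 fold changes of 0.22 and -0.38, with overlap. Of 10 class I-like genes outside the H2 region, such as Cd1d1 and Fcgrt, 7 were lower and 3 higher (median -0.10, and 0.04 without UIRI + BA replicate 3), with 0 at an unadjusted p below 0.05.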

How the data were processed

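Renal cortex RNA was sequenced in 3 UIRI and 3 UIRI + BA libraries, grouped by their labels. The library labels name oligo(dT) selection, a strand-specific kit and a column for RNA extraction, where the methods name TRIzol. According to the methods, the authors used HISAT2 for alignment, FeatureCounts for counting and DESeq2 for testing. The genome build and annotation are not given in the sources used here. The authors deposited a signal for each gene and library that is a read count divided by the size factor of the library. Dividing by its step gave whole reads for 100% of values (tolerance 0.01). All rows had at least 10 reads over the 6 libraries, and 0 columns of library values went unused. The log2 fold changes and p-values in the same deposited table, and the deposited Gene Ontology and KEGG enrichment tables, hold the authors' own comparisons and were not used.

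The test was limma 3.58.1 (R 4.3.3) on log2(value + 1) over all 19176 rows, with an intensity trend, no covariate, no filter and two-sided p-values adjusted by Benjamini-Hochberg. Fold changes are on this scale, which understates those of low genes. DESeq2 1.42.0 and edgeR 4.0.16 (quasi-likelihood) were applied to the recovered reads for comparison. The 3 tools were tested on simulated data with planted changes larger than that of any member, so that test does not cover differences of the size seen here. Further alternatives were upper quartile scaling, quantile normalization, a replicate block, a pseudocount of 0.1, a minimum of 1 in all libraries, edgeR without its filter and leaving out each library. Ratios between genes were compared by exact permutation of their log2 values.

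Every member is named. From the other lists the text gives counts, up to 5 genes with an unadjusted p below 0.05 and set defining genes. Some of these are not reported here. The members and lists were chosen with earlier results of these data known. Symbols were matched to GENCODE M21 (GRCm38) for positions, exon lengths and overlaps, and all 37 members matched. Promoters came from RefSeq (GRCm38.p6).

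Depth was 16510720 to 38124164 reads on genes. For most members the precision is set by the 3 mice of a group rather than by counting, whereas H2-Oa, H2-Eb2, H2-Ke6, H2-T-ps, H2-Q10 and H2-M5 rest on few reads.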

Additional observations from a re-analysis of the deposited data

How the results depend on the processing

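The medians of class I and class II stayed below 0 in every alternative. Leaving out each library in turn gave class I medians of -0.28 to -0.04 and class II medians of -0.40 to -0.10. Over all genes, limma's calls at an adjusted p below 0.05 numbered 0, and 0 to 962 with a library left out. The 962, of which 618 were higher with BA, came without UIRI replicate 3, and the other 5 fits gave 0. DESeq2 called 213 genes (163 higher) and edgeR 0, with 1703 at an unadjusted p below 0.05. At an unadjusted p below 0.05, leaving out libraries gave 808 to 4838 genes, 0 to 12 class I members and 1 to 8 class II members. Class I members at that p numbered 0 with quantile normalization and with DESeq2. The replicate block gave 6 adjusted calls over all genes and 4 class I members at an unadjusted p below 0.05. The deviations of same-numbered libraries correlated at -0.24, 0.304 and 0.155, and not every library correlated best with its own number. With 3 libraries in a group, these correlations cannot decide whether the numbers pair the mice. Of 518 values for single members, 34 changed sign, none of them at an unadjusted p below 0.05, and 1 passed the adjusted threshold (H2-Oa without UIRI replicate 3). In 24 members no alternative changed the sign.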
